A study of Mus musculus with 5 samples.

Results

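9 genes of the Hedgehog pathway were followed in maps of trimethylated lysine 27 of histone H3 (H3K27me3), out of 21728 protein-coding genes with 1 row per symbol in GENCODE M21. The 9 genes were taken by name. They were the ligands Shh, Ihh and Dhh, the receptor Ptch1, the co-receptor Boc, the ligand-binding inhibitor Hhip and the transcription factors Gli1, Gli2 and Gli3. The files held 1 list of broad H3K27me3 peaks from each of 4 ChIP-seq libraries of mouse dermal fibroblasts, 2 from conditional knockouts of Kdm6b (Kdm6b-cKO, replicates 3 and 4) and 2 from WT (replicates 7 and 9). Kdm6b, also called Jmjd3, encodes a demethylase that takes methyl groups off H3K27. In the Kdm6b-cKO the floxed Kdm6b alleles (Kdm6b fl/fl) were deleted by Dermo1Cre, a Cre recombinase driven by the Dermo1 (Twist2) gene, which is active in dermal mesenchyme, while the labels say of the controls only that they were WT, which in the single-cell part of the study meant Kdm6b fl/fl. Mice were on a C57BL/6 background. Cells came from the dermis of late embryos at E18.5 and were expanded in AmnioMAX medium before fixation. The labels give the same sort for GFP to all samples, WT included, and do not say whether replicates were separate embryos, so p-values measure only the spread between these libraries. In pooled cells, a mark present in more of the cells and a mark spread farther in each cell cannot be told apart. An input library was not analysed here.

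Hedgehog ligands are secreted proteins that bind Ptch1 on the receiving cell, with Boc assisting. Unbound Ptch1 holds the transducer Smo inactive, and binding of ligand releases Smo, which turns Gli2 and Gli3 from repressors or inactive forms into activators of transcription. Gli1, Ptch1 and Hhip are themselves switched on by the pathway, Ptch1 and Hhip then limiting the response. In skin, Shh from the hair follicle epithelium signals to the dermal papilla and the surrounding dermis. H3K27me3 is deposited by Polycomb repressive complex 2 and typically lies over genes that a cell type keeps silent.

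6 of the 9 genes carried H3K27me3 over at least 500 bp of the promoter in all 4 libraries, and the remaining 3 carried none in any library. The promoter was the 6001 bp window reaching 3 kb to either side of the gene start. The marked genes were Shh, Ihh, Dhh, Ptch1, Hhip and Gli1, and the unmarked ones were Gli2, Gli3 and Boc. For Ptch1 this holds at the GENCODE gene start. The start of Ptch1 used in a RefSeq promoter set, 7.86 kb downstream, was marked in no library. Among all 21728 genes, 15.2% were marked in all 4 libraries. The division was the same in Kdm6b-cKO and WT, as 6 of the 9 were marked in each library taken singly.

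The bases just before the gene starts are shown because the mark lay over starts with few CpGs and with many, and was missing from starts with many. Each sequence is the 250 bases before the start on build mm10 (GRCm38.p6), read 5′ to 3′ along the gene, with every CpG in capitals. The pair from Ptch1 is shown because 1 of its starts lay within a peak and the other outside, and Gli2 and Gli3 because they had no mark beside a high CpG count.
Shh, marked, chr5:28467257-28467506, minus strand: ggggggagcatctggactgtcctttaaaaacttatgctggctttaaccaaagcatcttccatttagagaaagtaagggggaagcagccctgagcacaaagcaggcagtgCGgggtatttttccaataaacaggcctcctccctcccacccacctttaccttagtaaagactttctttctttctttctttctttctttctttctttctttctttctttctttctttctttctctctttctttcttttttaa
Ihh, marked, chr1:74951673-74951922, minus strand: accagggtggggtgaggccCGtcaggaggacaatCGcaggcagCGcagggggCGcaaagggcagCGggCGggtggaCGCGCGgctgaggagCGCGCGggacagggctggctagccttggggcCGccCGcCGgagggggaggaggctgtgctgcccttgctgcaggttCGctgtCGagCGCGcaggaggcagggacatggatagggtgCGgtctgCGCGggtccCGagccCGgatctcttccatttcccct
Ptch1 first start, marked, chr13:63573599-63573848, minus strand: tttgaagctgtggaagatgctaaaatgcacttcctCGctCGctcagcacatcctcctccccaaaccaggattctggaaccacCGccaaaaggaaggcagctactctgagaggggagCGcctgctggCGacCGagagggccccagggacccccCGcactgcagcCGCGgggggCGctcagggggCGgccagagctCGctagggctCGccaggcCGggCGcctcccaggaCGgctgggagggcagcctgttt
Ptch1 later start, not marked, chr13:63565736-63565985, minus strand: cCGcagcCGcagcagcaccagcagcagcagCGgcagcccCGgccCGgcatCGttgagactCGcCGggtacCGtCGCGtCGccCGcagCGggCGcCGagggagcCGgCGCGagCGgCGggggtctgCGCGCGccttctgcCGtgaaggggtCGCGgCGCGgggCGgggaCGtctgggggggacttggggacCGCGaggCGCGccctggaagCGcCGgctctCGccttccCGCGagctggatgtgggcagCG
Gli1, marked downstream of the start, chr10:127341975-127342224, minus strand: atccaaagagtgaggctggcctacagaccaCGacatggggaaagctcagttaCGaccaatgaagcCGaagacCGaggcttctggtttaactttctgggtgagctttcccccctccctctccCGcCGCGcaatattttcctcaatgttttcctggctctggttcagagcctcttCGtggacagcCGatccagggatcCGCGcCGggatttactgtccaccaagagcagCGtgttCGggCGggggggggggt
Gli2, not marked, chr1:119053620-119053869, minus strand: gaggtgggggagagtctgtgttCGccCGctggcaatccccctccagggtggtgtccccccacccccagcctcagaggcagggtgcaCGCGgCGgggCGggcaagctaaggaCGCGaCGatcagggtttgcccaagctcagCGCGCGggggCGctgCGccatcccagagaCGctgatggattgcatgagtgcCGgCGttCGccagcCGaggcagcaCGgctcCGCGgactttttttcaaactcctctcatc
Gli3, not marked, chr13:15462985-15463234, plus strand: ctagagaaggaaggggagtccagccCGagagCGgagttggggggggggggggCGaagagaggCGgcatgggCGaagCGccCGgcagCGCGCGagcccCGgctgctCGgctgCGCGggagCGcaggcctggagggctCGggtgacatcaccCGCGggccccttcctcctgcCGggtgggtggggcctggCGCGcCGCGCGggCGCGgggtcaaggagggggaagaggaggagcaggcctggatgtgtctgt

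The stretch before Shh held 1 CpG and that before Ihh 24, although both starts lay inside a peak in every library. The stretches before Gli2 and Gli3 held 22 and 26 CpGs and had no peak. At Ptch1 the marked start followed 16 CpGs and the unmarked one 41. The median over all genes was 8 CpGs in these 250 bases.

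Over the whole 6001 bp window the marked genes Shh, Ihh, Dhh, Ptch1, Hhip and Gli1 held 205, 253, 131, 153, 128 and 174 CpGs. The unmarked genes Gli2, Gli3 and Boc held 192, 258 and 132. The 2 sets overlapped, and all 9 genes lay above the median of 108.5 for all genes. The median was 135 for the 3292 promoters marked in all 4 libraries and 106 for the 14879 without a covered base in any library.

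The letters GACCACCCA, the consensus bound by Gli factors, were searched on both strands (TGGGTGGTC on the other strand) in the same windows. Of the 9 genes, Ptch1 alone held a match. It lay 125 bp downstream of the first start, at chr13:63573465-63573473 on the strand of the gene, and was inside the peak in all 4 libraries. The match is given in capitals within 30 bases.
Ptch1 match: tggcgcggcaGACCACCCAcgccgagggcc
A match was present in 4.96% of the windows of all genes. It describes the letters in the window and not the binding of a factor.

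The libraries differed in how much of the genome their peaks covered, which bears on each comparison that follows. On the autosomes and the X chromosome, Kdm6b-cKO replicates 3 and 4 had 44077 and 40565 peaks over 148.3 and 123.9 Mb, and WT replicates 7 and 9 had 29841 and 22597 peaks over 91.4 and 61.5 Mb. The study's methods state that libraries had been subsampled to the same number of reads. The lists themselves give no read counts, so the reads behind a single peak are unknown and its counting error cannot be estimated. The labelled cell type was set beside 10 fibroblast genes (among them Pdgfra, Col1a1, Dcn and Twist2). None of these had a marked promoter in any library, where 71.2% of all genes had none. Also marked in no library were 2 of 7 keratinocyte, 3 of 5 endothelial, 2 of 4 immune and 1 of 4 melanocyte and Schwann cell genes. Absence of the mark thus does not by itself single out fibroblast genes. Promoters of keratinocyte genes were marked in 3 or 4 of 7, with 15.6 to 16.3 kb covered in all in WT and 18.8 to 19.3 kb in Kdm6b-cKO. The summed cover was 3.07 to 4.96 kb in WT and 5.19 to 7.43 kb in Kdm6b-cKO for 5 endothelial genes, 5.85 to 7.72 and 9.61 to 9.96 kb for 4 immune genes, and 6.001 to 8.477 and 8.76 to 12.9 kb for 4 melanocyte and Schwann cell genes. These lists were thus higher in Kdm6b-cKO as the genome was, and the part of other cell types in the values at Hedgehog genes was not tested.

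Whether the demethylase limits the mark at Hedgehog genes was asked by comparing the 2 genotypes at 2 widths, the promoter and a window reaching 25 kb to either side of the start. Limma was fitted across all genes with at least 500 bp covered in at least 1 library, with Benjamini-Hochberg adjustment. No Hedgehog gene passed an adjusted p of 0.05 at either width. At the promoter 6 of the 9 were tested and 1 had an unadjusted p under 0.05, while within 25 kb 8 were tested and 3 had one. Of the tested promoters, those of Shh, Ihh and Ptch1 were fully covered in every library and could show no gain. Over all genes, 7.93% of 6251 promoters were called higher in Kdm6b-cKO and 0.0960% lower. Within 25 kb, 7.69% of 11829 genes were called higher and 0% lower, although 4010 genes had an unadjusted p under 0.05 in either direction.

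**Figure D1:**
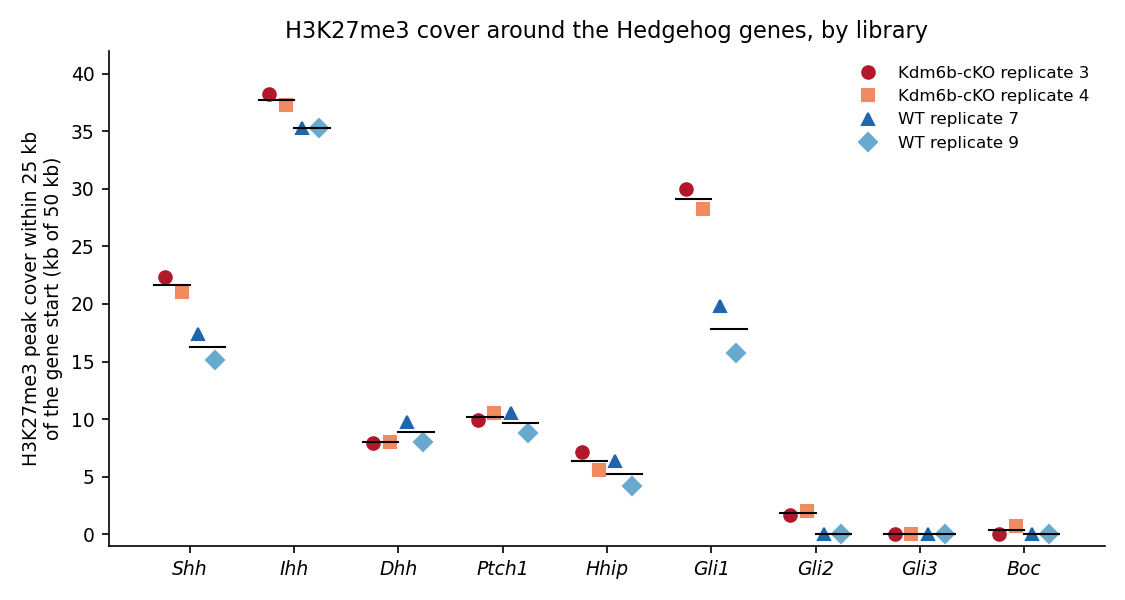
Kilobases inside H3K27me3 peaks within 25 kb of the start of each Hedgehog gene (vertical axis), with 1 point per library and a horizontal line at the mean of the 2 libraries of a genotype. Each Kdm6b-cKO library lies above each WT library at Shh, Ihh, Gli1 and Gli2, the genotypes overlap at Dhh, Ptch1, Hhip and Boc, and Gli3 is at 0.

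Shh, the ligand that hair follicles use, sat in an isolated domain with ends farther out in Kdm6b-cKO (gene at chr5:28456815-28467256, minus strand). The promoter and the whole gene, exons and introns alike, were 100% covered in every library, so that a gain could appear only outside them. Within 25 kb of the start, 22.3 and 21.04 kb were covered in Kdm6b-cKO replicates 3 and 4 and 17.4 and 15.2 kb in WT replicates 7 and 9. The Kdm6b-cKO values were both above the WT values, by 5.43 kb on average (SE 1.16, 95% interval 1.996 to 8.87 kb), and the limma adjusted p was 0.0780.

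The peak over the Shh start extended 6.83, 6.70, 4.37 and 3.38 kb upstream in Kdm6b-cKO replicates 3 and 4 and then in WT replicates 7 and 9. Downstream it reached 15.3, 13.6, 13.0 and 11.8 kb. Both ends therefore lay farther from the start in each Kdm6b-cKO library than in each WT library. Its fold over the local background, averaged over the peak by the peak caller, was 5.67, 5.45, 4.54 and 4.37 in the same order, again without overlap. How often peaks elsewhere in the genome had this order of fold was not counted. Within 100 kb of the start no further base was covered in any library beyond those within 25 kb.

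Ihh, the ligand of growth plate cartilage and gut, had the longest peak over a start among the 9 genes in every library (gene at chr1:74945315-74951672, minus strand). Its promoter and gene were 100% covered in every library. Within 25 kb, 38.3 and 37.3 kb lay inside peaks in Kdm6b-cKO, compared with 35.3 kb in both WT libraries. The difference was 2.46 kb (SE 0.741, 95% interval 0.271 to 4.65 kb), with a limma adjusted p of 0.123, and it turned to -1.60 kb (adjusted p = 0.430) when the covered length of each library was centred on its mean over all genes tested.

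The peak over the Ihh start was 134.2, 133.6 and 133.4 kb long in Kdm6b-cKO replicates 3 and 4 and WT replicate 7, and 48.6 kb in WT replicate 9. WT replicate 9 thus stood apart in the extent of this peak, while the upstream ends lay between 9.59 and 11.6 kb from the start in all 4. The promoters of Cfap65, Cryba2, Fev and Cdk5r2, whose starts lie 16.1, 58.5, 66.3 and 96.7 kb downstream of the Ihh start, were 100% covered in every library. In WT replicate 9 the cover at the farther 3 came from other peaks than the one over Ihh, whose end lay 38.6 kb downstream. Upstream, the promoter of Nhej1 had none.

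Dhh, the ligand of Schwann cells and Sertoli cells, had overlapping values in the 2 genotypes (gene at chr15:98891152-98898540, minus strand). Within 25 kb, 7.938 and 7.997 kb lay inside peaks in Kdm6b-cKO, compared with 9.721 and 7.997 kb in WT. The groups overlapped, with a difference of -0.892 kb (SE 0.915, 95% interval -3.59 to 1.81 kb) and a limma adjusted p of 0.536. When the covered length of each library was centred, the difference was -4.95 kb with an adjusted p of 0.0395.

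The peak over the Dhh start took in all coding bases and introns of the gene in every library and reached the promoter of Rhebl1, 4.0 kb downstream. The promoter of Rhebl1 was covered over 71.9% and 81.1% in Kdm6b-cKO, against 84.0% and 81.1% in WT. That of Lmbr1l, 19.7 kb upstream, had no cover. The fold of the Dhh peak was 5.59 and 5.27 in Kdm6b-cKO, against 4.71 and 4.53 in WT, so that it was higher in both Kdm6b-cKO libraries at a peak whose length was not. The peak caller's fold was not tested, and how often peaks elsewhere in the genome had this order was not counted.

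**Figure D2:**
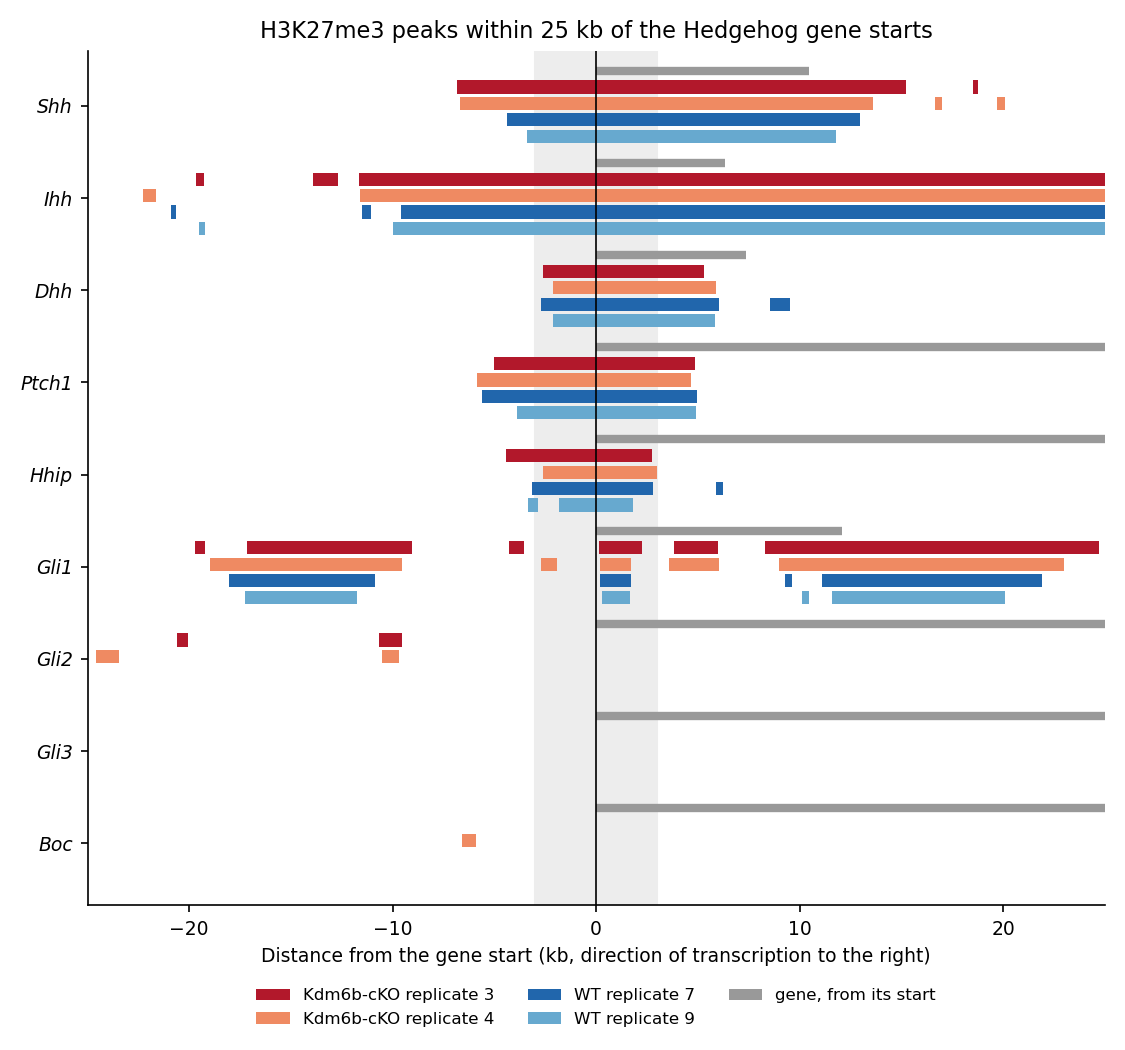
H3K27me3 peaks (coloured bars, 1 row per library) by distance in kb from the start of each Hedgehog gene, with the gene as a grey bar and the promoter window shaded. Peaks span the starts of Shh, Ihh, Dhh, Ptch1 and Hhip in all 4 libraries, begin just after the start of Gli1, and lie upstream of Gli2 in both Kdm6b-cKO libraries and of Boc in Kdm6b-cKO replicate 4.

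Ptch1, the receptor and a target of the pathway, was marked around its first start and not at the later ones, with overlapping values in the 2 genotypes (gene at chr13:63508328-63573598, minus strand). The promoter was 100% covered in every library. Within 25 kb, 9.89 and 10.5 kb lay inside peaks in Kdm6b-cKO, compared with 10.6 and 8.77 kb in WT, all of it in 1 peak per library. The groups overlapped, with a difference of 0.553 kb (SE 0.966, 95% interval -2.30 to 3.41 kb) and a limma adjusted p of 0.702, and this turned to -0.344 kb without WT replicate 9 and to -3.50 kb with centring.

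Of 10 annotated transcript starts of Ptch1, 2 were marked in all 4 libraries and 8 in none. The marked pair lies 138 bp apart. The peak ended 4.68 to 4.96 kb downstream of the first start, short of a cluster of starts that begins 7.86 kb downstream. There, 15 bp and 0 bp of the 6001 bp window were covered in Kdm6b-cKO, against 96 bp and 25 bp in WT. In all, 7.17% to 7.60% of the gene was covered, and 4.59% of its coding bases in each library. The fold of the peak lay between 4.42 and 4.58 in the 4 libraries, a narrower range than at Shh.

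Hhip, a membrane protein that binds and sequesters Hedgehog ligands, had the weakest of the peaks over a start (gene at chr8:79965851-80058006, minus strand). Its fold was 3.41 and 3.21 in Kdm6b-cKO, against 2.97 and 3.28 in WT. Of the promoter, 95.9% and 93.4% were covered in Kdm6b-cKO, against 96.5% and 63.2% in WT. The groups overlapped, and WT replicate 9 alone was low. The promoter difference of 14.8 points (SE 14.8, limma adjusted p = 0.569) was -1.92 points without WT replicate 9. Within 25 kb, 7.18 and 5.61 kb lay inside peaks in Kdm6b-cKO, compared with 6.32 and 4.16 kb in WT, a difference of 1.15 kb (SE 1.20, 95% interval -2.38 to 4.69 kb, limma adjusted p = 0.541). The promoter was marked in Kdm6b-cKO replicate 3 alone when peaks were limited to a −log10 q of at least 5, and in all but WT replicate 7 at equal covered length. Of the 2 annotated starts of Hhip, 1 was marked in 4 libraries and the other in none.

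Boc, which binds Hedgehog ligands together with Ptch1, had no covered base in its promoter or its gene in any library (gene at chr16:44485049-44558897, minus strand). Within 25 kb, 0.692 kb was covered in Kdm6b-cKO replicate 4 and none in the other libraries. This was a single peak between 5.90 and 6.59 kb upstream of the start, and 96.8% of the peaks of that library had a higher −log10 q. The difference of 0.346 kb had a limma adjusted p of 0.732.

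Gli1, the activator whose transcription is itself a readout of Hedgehog signalling, had the largest difference among the 9 genes within 25 kb (gene at chr10:127329882-127341974, minus strand). Within 25 kb of its start, 30.0 and 28.2 kb lay inside peaks in Kdm6b-cKO, compared with 19.9 and 15.8 kb in WT. The groups did not overlap. The difference was 11.3 kb (SE 1.81, 95% interval 5.95 to 16.6 kb), 1.63-fold, with a limma adjusted p of 0.0552. It kept its direction in every alternative run and lay between 7.24 and 14.6 kb. It passed the threshold when peaks were limited to a −log10 q of at least 5 (14.6 kb, adjusted p = 0.0220), with centring (7.24 kb, adjusted p = 0.00430) and when at least 1000 bp of cover was required (adjusted p = 0.0499). It did not pass with the strongest peaks of each library up to an equal covered length (7.97 kb, adjusted p = 0.120).

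The Gli1 start itself was outside a peak in every library. A peak began 152 to 287 bp downstream and ended 1.68 to 2.25 kb downstream, with a fold of 5.05 and 5.56 in Kdm6b-cKO, against 4.68 and 4.69 in WT. Of the promoter window, 35.0% and 39.1% were covered in Kdm6b-cKO, against 25.03% and 23.25% in WT, a difference of 12.9 points (SE 2.08, 95% interval 5.599 to 20.23, limma adjusted p = 0.0924). Among the 6 tested promoters, that of Gli1 alone had each Kdm6b-cKO value above each WT value, where 49.0% of all promoters tested had that order. With the windows of all 4 annotated Gli1 starts joined, the difference was 28.2 points (adjusted p = 0.0350), and with centring the promoter difference turned to -4.27 points (adjusted p = 0.747). It was 6.11 points with equal peak number, equal covered length or a −log10 q of at least 5 (adjusted p from 0.567 to 0.620), and 3.65 points within 1 kb of the start (adjusted p = 0.627).

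Of the difference at Gli1, 10.5 of the 11.3 kb lay more than 3 kb from the start, inside the gene and beyond both of its ends. The gene was covered over 66.9% and 58.6% in Kdm6b-cKO, against 23.4% and 18.4% in WT, and its coding bases over 88.1% and 85.1% against 33.3% and 18.7%. A peak between 3.59 and 6.02 kb downstream of the start was present in both Kdm6b-cKO libraries and absent from both WT lists. Its −log10 q was 3.34 and 2.40 in Kdm6b-cKO replicates 3 and 4, where the lowest in these lists was 2.02 and 2.04. Mark below the calling threshold in WT would not be seen. The gene was taken as a window after the promoter values had been seen. For the whole gene the difference was 41.8 points (SE 4.30, 95% interval 26.7 to 57.0, limma adjusted p = 0.0457), in a fit that called 10.6% of 6254 genes higher.

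The promoters on either side of Gli1 had the same order of libraries. The promoter of Inhbe, whose start lies 12.4 kb upstream, was covered over 100% and 97.9% in Kdm6b-cKO, against 76.4% and 61.7% in WT. That of Arhgap9, with a start 20.01 kb downstream, was covered over 100% and 99.6% against 81.8% and 51.8%. The peaks over these promoters enter the 25 kb window of Gli1, so that its value there is a value of the neighbourhood and not of Gli1 alone. The peak over the Arhgap9 start also enters the Gli1 gene, so the whole-gene value shares this limit.

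**Figure D3:**
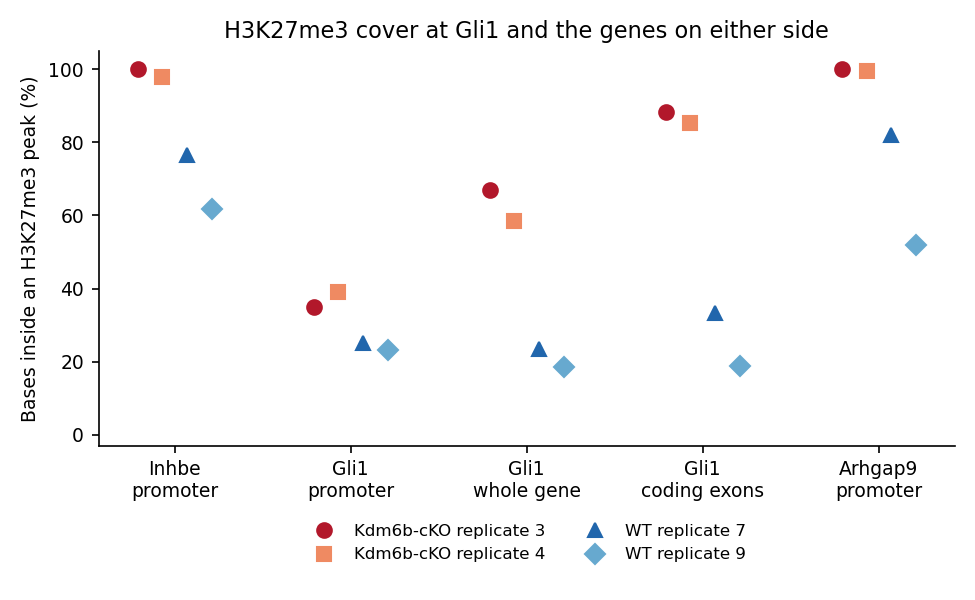
Percent of bases inside an H3K27me3 peak (vertical axis) at the promoters of Inhbe, Gli1 and Arhgap9, the whole Gli1 gene and its coding exons, with 1 point per library. Each Kdm6b-cKO library lies above each WT library in each of the 5 columns, with the widest gap over the coding exons of Gli1.

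Gli2, the main activator of the pathway response, was free of the mark over its promoter and its 219.5 kb gene in every library (gene at chr1:118834132-119053619, minus strand). Within 25 kb, 1.67 and 1.99 kb lay inside peaks in Kdm6b-cKO, compared with none in WT. The difference of 1.83 kb (SE 0.651, 95% interval -0.0896 to 3.76 kb) had a limma adjusted p of 0.158 and turned to -2.22 kb with centring. Both Kdm6b-cKO libraries had a peak between 9.54 and 10.7 kb upstream of the start, with a fold of 2.68 and 2.54. Of all peaks in these libraries, 76.9% and 89.5% had a higher −log10 q. Each library had 1 more peak that the other lacked, between 20.1 and 20.6 kb upstream in Kdm6b-cKO replicate 3 (57.0% of its peaks higher) and between 23.4 and 24.6 kb upstream in Kdm6b-cKO replicate 4 (fold 3.12, 23.1% of its peaks higher).

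Gli3, which acts mainly as a repressor of Hedgehog targets, was the emptiest of the 9 (gene at chr13:15463235-15730026, plus strand). No base was covered in any library within 100 kb of its start or within the gene. It had no value to test, and the lists show only where peaks were called, so that mark below the calling threshold is not seen.

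The Hedgehog genes were set beside all genes by counts and medians alone. Within 25 kb, 4 of the 8 tested had each Kdm6b-cKO value above each WT value, against 65.3% of all genes tested, and none had the reverse order, against 1.67%. The median difference was 1.49 kb for the 8 and 2.41 kb for all genes tested. For the 6 promoters it was 0 points, against 11.7 points over all promoters tested, since 3 of them were fully covered in every library. By length of cover within 25 kb, 0.980% of all genes exceeded Ihh in WT, 5.22% exceeded Gli1 and 6.04% Shh, while for Ptch1, Dhh and Hhip this was 11.8%, 12.8% and 20.4%. In Kdm6b-cKO, 1.79% exceeded Ihh, 4.26% Gli1 and 7.89% Shh, and for Ptch1, Dhh and Hhip this was 19.6%, 23.8% and 27.4%.

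**Figure D4:**
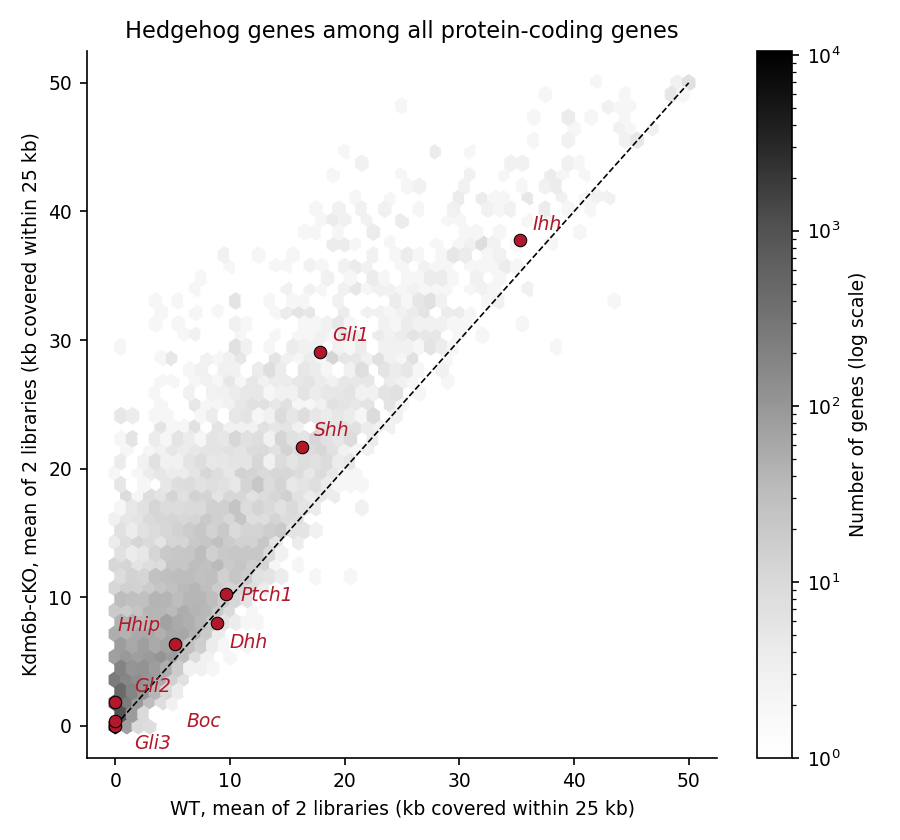
Mean kilobases covered within 25 kb of the start in WT (horizontal axis) and Kdm6b-cKO (vertical axis), 2 libraries each, with all protein-coding genes as grey hexagons shaded by number on a log scale and the Hedgehog genes as red points. The dashed line marks equal values, and Gli1 at 17.8 and 29.1 kb lies farthest above it of the 9.

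Of 20 pathway genes between receptor and Gli factors, 15 had no marked promoter in any library, where 71.2% of all genes had none. Only 1 was marked in all 4, where 15.2% of all genes were. At the promoter 5 were tested and within 25 kb 9, and limma called none higher or lower at either width, with 1 and 3 at an unadjusted p under 0.05. Of all genes tested at these widths, 7.93% and 7.69% were called higher. Smo, the transducer that Ptch1 restrains, had 16.4 and 12.5 kb covered within 25 kb in Kdm6b-cKO, compared with 7.83 and 5.83 kb in WT (difference 7.63 kb, SE 1.78, limma adjusted p = 0.0863). Both values in Kdm6b-cKO were above those in WT, but the gene itself held little of this cover. Of the Smo gene, 2.38% was covered in Kdm6b-cKO replicate 4 and none in the other libraries. Its promoter values overlapped, at 26.7% and 4.38% in Kdm6b-cKO against 1.95% and 5.90% in WT. Btrc, part of the ubiquitin ligase that processes Gli proteins, had 16.31 and 16.03 kb against 13.1 and 4.56 kb. Prkaca, a catalytic subunit of protein kinase A, and Kif7, a ciliary kinesin that regulates Gli factors, differed by 3.08 and 2.84 kb (limma adjusted p = 0.0917 and 0.0850). No base of the gene was covered in any library at Btrc, Prkaca or Kif7, nor any base of the promoter at Prkaca and Kif7. Their values within 25 kb are thus values of the neighbourhood.

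Of 12 genes for the processing and release of ligand, 6 promoters were tested, of which 2 were called higher and none lower, where 7.93% of all promoters tested were called higher. Within 25 kb 8 were tested and again 2 were called higher and none lower, beside 7.69% of all genes tested. Disp3, a relative of the ligand-releasing Dispatched protein, was covered over 100% of its promoter in both Kdm6b-cKO libraries and over 62.9% and 67.1% in WT (limma adjusted p = 0.0273). At full cover the Kdm6b-cKO libraries could not differ, which lowers the spread behind this p-value. Within 25 kb the values of Disp3 were 25.6 and 28.0 kb against 7.73 and 7.87 kb (adjusted p = 0.0280). Scube1, of the family of secreted proteins that help release ligand, had a fully covered promoter in all 4 libraries and 44.19 and 41.98 kb within 25 kb against 21.7 and 17.2 kb (adjusted p = 0.0322).

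Gpc3, a glypican that binds Hedgehog ligand, lies on the X chromosome, and the labels give no sex. Its promoter was covered over 100% in both Kdm6b-cKO libraries and over 32.5% and 19.7% in WT (limma adjusted p = 0.0365). This turned to -9.85 points (adjusted p = 0.620) with the strongest peaks up to an equal covered length. Scube3 had 50 and 48.2 kb within 25 kb against 41.7 and 33.9 kb, with an adjusted p of 0.107. With the strongest peaks up to an equal covered length, Disp3 and Scube1 differed by 16.2 and 23.2 kb within 25 kb (adjusted p = 0.0630 and 0.0649). At −log10 q of at least 5 Scube1 differed by 19.7 kb (adjusted p = 0.295), and with centring the promoter of Disp3 differed by 17.8 points (adjusted p = 0.180). Each of the calls at Disp3, Scube1 and Gpc3 was lost without Kdm6b-cKO replicate 3, Kdm6b-cKO replicate 4 or WT replicate 9, with adjusted p-values from 0.0718 to 0.176, and held without WT replicate 7.

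Genes known as targets of the pathway in other tissues were often marked. Of 24, 16 had a promoter marked in all 4 libraries and 5 in none, where 15.2% and 71.2% of all genes did. Limma called none of the 19 tested promoters, with 1 at an unadjusted p under 0.05, where 7.93% of all promoters tested were called higher. Many of the 19, among them those of Foxf1, Foxf2, Nkx2-2 and Jag2, were fully covered in every library. A gain could not appear there, so the promoter count does not show whether these genes respond. Within 25 kb it called 2 of 19 higher and none lower, beside 7.69% of all genes tested called higher. Foxf2, a forkhead factor of mesenchyme, had 38.8 and 35.1 kb in the 2 Kdm6b-cKO libraries, against 25.4 and 25.1 kb in WT (limma adjusted p = 0.0456). Nkx2-2, a homeodomain factor of the ventral neural tube, had 27.9 and 27.7 kb against 22.0 and 20.7 kb (adjusted p = 0.0434). With the strongest peaks up to an equal covered length, the differences fell to 1.09 and 1.38 kb (adjusted p = 0.458 and 0.464), from 11.7 and 6.44 kb. Both calls were lost when any 1 of the 4 libraries was left out, with adjusted p-values from 0.0626 to 0.181. Jag2, a Notch ligand, and Sfrp1, a secreted Wnt antagonist, differed by 17.4 and 12.4 kb, with adjusted p-values of 0.0690 and 0.107.

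The genes whose covered length within 25 kb most resembled that of a Hedgehog gene over the 4 libraries were found by Euclidean distance. A230050P20Rik and Rap1gap were 0.679 and 1.06 kb from Shh. For Gli1 these were Alox12b and Cyp11a1, at 1.48 and 1.57 kb. Ihh had no gene as near, the closest being Gm19684 and Foxf1 at 3.32 and 3.44 kb. Gys1 and Calcb were nearest to Ptch1 (0.853 and 0.932 kb), Adcyap1 and Mal2 to Dhh (0.596 and 0.938 kb), and Kat6a and Stx7 to Hhip (0.567 and 0.673 kb). The short covers of Gli2 and Boc were matched within 0.0469 kb by Dusp1 and Ergic1 and within 0.002 kb by Cntnap2 and Phykpl.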

How the data were processed

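The authors precipitated H3K27me3 chromatin from cultured E18.5 dermal fibroblasts after enzymatic digestion. Tools listed in the submitters' processing notes were MACS2 2.2.7.1, Bowtie2 2.3.5.1, deepTools 3.5.1, SAMtools 1.9 and bcl2fastq, all on mm10. Libraries had been subsampled, per the study's methods, to equal reads, and broad peaks called at q 0.01 in each library on its own. The deposited lists give positions and, averaged over each peak, −log10 q, −log10 p, a fold ratio over background and a display score from the authors' peak caller. The score was not used, and the ratio and −log10 values only described, ranked or filtered peaks.

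From the positions, covered bases within 3 and 25 kb of the GENCODE M21 gene start were summed for 21728 protein-coding genes. Limma 3.58.1 (R 4.3.3; lmFit, eBayes; 2 libraries against 2, no covariate, Benjamini-Hochberg adjustment) was fitted to genes with at least 500 bp covered in 1 library. It was tested on simulated data. Sequence was read from GRCm38.p6. Python 3.11.15, numpy 2.4.6, pandas 2.3.3 and matplotlib 3.10.9 were used. The genes and lists were chosen with earlier results of these data known. All 9 Hedgehog genes were named. From each other list, genes called at either width and up to 4 with the largest absolute difference within 25 kb were named, and so were the 2 genes over 1 Mb away or on another chromosome most alike in covered length to each Hedgehog gene. Alternatives were equal numbers or lengths of the strongest peaks, a stricter q, centring, other filters and windows, and leaving out each library. The whole-gene window, and leaving out a library for the count of marked promoters, were added after seeing the data.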

Additional observations from a re-analysis of the deposited data

How the results depend on the processing

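No paired analysis was possible because the 2 genotypes share no replicate number. With 2 libraries a group and no read counts, the precision is set by the number of libraries.

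The number of Hedgehog genes marked in all 4 libraries was 6 of 9 under each alternative run, also without each library in turn, except for 5 of 9 at equal covered length, where Hhip was not marked in WT replicate 7, and 5 of 9 at −log10 q of at least 5, where Hhip was marked in Kdm6b-cKO replicate 3 alone. None was marked in both libraries of 1 genotype and neither of the other. No Hedgehog gene was called without any 1 library. The number called at the promoter was 1 (Gli1) with all annotated starts and 1 (Gli1) with the whole gene, and within 25 kb it was 1 (Gli1) at −log10 q of at least 5 and at a minimum of 1000 bp, and 2 (Gli1 higher, Dhh lower) with centring. Of 168 differences of single Hedgehog genes under alternatives, 151 neither reversed nor changed side of the threshold. A further 6 passed it and 11 reversed, none of them past it. The 151 include the promoters of Shh, Ihh and Ptch1, whose main difference of 0 had no direction to keep. They were counted so even with centring, which gave -17.2 points. Centring took 17.2 points from each promoter difference and 4.06 kb from each difference within 25 kb, by its construction, and gave -2.41 points for Hhip and -4.27 for Gli1, and -1.60 kb for Ihh, -3.50 for Ptch1, -2.91 for Hhip, -2.22 for Gli2 and -3.71 for Boc. Leaving out a library reversed Dhh at the promoter (3.37 points without Kdm6b-cKO replicate 4, 4.06 without WT replicate 7, within a range of -5.52 to 4.06), Hhip at the promoter (-1.92 points without WT replicate 9, up to 31.5 without WT replicate 7) and Ptch1 within 25 kb (-0.344 kb without WT replicate 9, up to 1.45 without WT replicate 7).

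The counts over all genes moved more. Promoters called higher numbered 496, and 135 at equal covered length. Those called lower numbered 6, and 16 at equal peak number, 78 at equal covered length, 58 with centring, 3 with all starts and 1 with the whole gene. Within 25 kb, 910 were called higher, and 354 at equal peak number, 68 at equal covered length and 1430 with centring, while 0 were called lower, and 1, 39 and 407 in the same order and 4 at −log10 q of at least 5. Without 1 library, promoters called higher ranged from 0 (without WT replicate 9) to 1419 (without Kdm6b-cKO replicate 4), with 1288 without Kdm6b-cKO replicate 3, and those called lower from 0 to 70. Within 25 kb the count ranged from 0 (without Kdm6b-cKO replicate 3, Kdm6b-cKO replicate 4 or WT replicate 9) to 647 (without WT replicate 7). Where a genotype was left with 1 library, that library was assumed to vary like the others. The causes of these shifts were not tested.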
